A study of Mus musculus with 25 samples.

Results

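The Kruppel-like factors examined here were Klf2, Klf3, Klf4, Klf6, Klf7, Klf9, Klf10 and Klf13. They were taken by symbol from the count tables, 8 of the 24411 genes listed, and measured on their own strand in all 9 conditions of the study. RNA-seq was performed on bone marrow-derived macrophages (BMDMs) and on RAW264.7, a mouse macrophage cell line that the study traces to virus-infected Balb/c mice. The BMDMs came from C57BL/6 mice and had been grown for 4 days in DMEM with 25 ng/ml M-CSF, the growth factor that turns marrow cells into macrophages, and the RAW264.7 cells were grown in RPMI. The BMDM groups had 3 samples each: control, IFN-γ (100 U/ml) with LPS (100 ng/ml) for 1, 4, 12 or 24 h (IFN-LPS below), IL-4 (10 ng/ml) for 12 h and IL-13 (10 ng/ml) for 12 h. The RAW264.7 groups had 2 samples each, a control and LPS (100 ng/ml, without IFN-γ) for 4 h. Both controls were labelled as cultured for 4 h, so every time point other than 4 h differed from its control in culture time as well, and cytokine and time cannot be told apart there. The study calls the IFN-LPS samples IFN-γ-primed, and how long IFN-γ came before LPS is not given in the sources used here. All BMDM comparisons with control used the same 3 control samples.

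Kruppel-like factors are transcription factors whose carboxy-terminal zinc fingers bind CACCC boxes and GC-rich elements, which they share with the SP proteins. The amino-terminal parts differ: KLF3 recruits the CtBP corepressors, KLF9, KLF10 and KLF13 recruit the SIN3 corepressor complex, and KLF2, KLF4, KLF6 and KLF7 act with histone acetyltransferases such as p300. In macrophages KLF2 is known to restrain pro-inflammatory gene expression, KLF4 to act with STAT6 in the response to IL-4, and KLF6 to work with NF-κB on pro-inflammatory genes.

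The promoters of 4 members are shown because Klf3, Klf7 and Klf4 were all at their highest in IFN-LPS 4 h, whereas Klf9 was lower than in control at 1, 12 and 24 h. Each sequence runs 5′ to 3′ over 300 bases, 250 before and 50 after the RefSeq start site (assembly GRCm38.p6, the mm10 build), with CACCC boxes and GGGCGG boxes on either strand in capitals.
Klf3: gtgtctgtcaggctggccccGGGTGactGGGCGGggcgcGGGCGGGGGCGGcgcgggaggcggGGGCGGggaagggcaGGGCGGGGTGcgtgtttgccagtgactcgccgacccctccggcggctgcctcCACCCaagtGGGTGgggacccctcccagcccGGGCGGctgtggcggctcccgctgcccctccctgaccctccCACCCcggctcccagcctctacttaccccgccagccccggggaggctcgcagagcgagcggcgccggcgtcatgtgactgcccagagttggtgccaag
Klf7: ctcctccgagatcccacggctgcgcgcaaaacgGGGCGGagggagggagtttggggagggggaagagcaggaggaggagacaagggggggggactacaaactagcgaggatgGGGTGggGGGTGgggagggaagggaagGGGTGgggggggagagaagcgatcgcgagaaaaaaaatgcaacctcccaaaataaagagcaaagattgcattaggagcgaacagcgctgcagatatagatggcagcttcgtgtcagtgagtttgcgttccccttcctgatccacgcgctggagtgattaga
Klf4: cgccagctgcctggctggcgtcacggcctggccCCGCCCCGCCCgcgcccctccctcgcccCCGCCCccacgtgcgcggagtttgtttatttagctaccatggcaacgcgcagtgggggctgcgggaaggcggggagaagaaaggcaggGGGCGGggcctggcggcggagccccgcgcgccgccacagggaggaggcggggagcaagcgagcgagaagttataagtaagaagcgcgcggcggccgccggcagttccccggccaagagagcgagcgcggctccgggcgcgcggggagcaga
Klf9: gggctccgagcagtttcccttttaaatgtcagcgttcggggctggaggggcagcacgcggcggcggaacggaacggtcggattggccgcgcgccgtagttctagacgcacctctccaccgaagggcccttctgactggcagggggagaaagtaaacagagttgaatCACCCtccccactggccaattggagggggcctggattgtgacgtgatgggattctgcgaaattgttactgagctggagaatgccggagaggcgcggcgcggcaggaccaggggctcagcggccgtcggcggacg
The windows were chr5:64803271-64803570 (Klf3, plus strand), chr1:64121340-64121639 (Klf7, minus strand), chr4:55532426-55532725 (Klf4, minus strand) and chr19:23140976-23141275 (Klf9, plus strand). The Klf3 window held 5 CACCC and 6 GGGCGG boxes, 1 of each sharing a base. Klf7 held 3 CACCC boxes and 1 GGGCGG box, Klf4 no CACCC and 4 GGGCGG boxes, 2 of which shared a base, and Klf9 1 CACCC box and no GGGCGG box. Over 32851 mouse promoters of the same length, 57.5% held a CACCC box and 35.7% a GGGCGG box. GC content was 76.7% for Klf3, 58.3% for Klf7, 74.3% for Klf4 and 63.3% for Klf9, above the median of 52.7% over all promoters. Of the other members, the Klf2 window (chr8:72318812-72319111, plus strand) held CTAAATTTAG, a match to the site of the MEF2 factors that 3.19% of promoters had, 118 bases before the start. Promoters of 7 of the 8 members were in the table, all but Klf10.

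Sense counts on genes, without the ribosomal precursor Rn45s, ran from 1502618 to 2532496 per library, so the weakest members rested on single counts. Levels are CPM, counts scaled to a common library total, after TMM normalization, given as mean ± SD over n = 3 BMDM or n = 2 RAW264.7 libraries, and the study's methods describe the BMDM replicates as biological, from separate RNA samples. Tests are edgeR quasi-likelihood tests fitted across all genes, with the FDR adjusted over them. A gene was called at an FDR of at most 0.01 and an absolute log2 fold change of at least 1, or 0.7 for IL-4 and IL-13 against control and against each other. Scaling by library size alone, without TMM, shifted the median log2 fold change of all genes by -0.22, -0.58, -0.35 and -0.23 for IFN-LPS of 1, 4, 12 and 24 h against control, and by -0.14 in RAW264.7 with LPS. Upward changes then made up 44.4% rather than 63.0% of all calls after 1 h, 25.3% rather than 50.4% after 4 h, 32.1% rather than 50.8% after 12 h, 37.4% rather than 50.9% after 24 h and 37.4% rather than 48.4% in RAW264.7. Between IFN-LPS times the median moved by -0.36 from 1 to 4 h, 0.23 from 4 to 12 h and 0.13 from 12 to 24 h, and upward calls were 28.7% rather than 50.9%, 68.1% rather than 49.4% and 51.7% rather than 32.5%. No member changed its direction with this scaling in a comparison in which it was called. Macrophage markers were abundant in all libraries, except that Mertk had no count in RAW264.7. Markers of stromal cells summed to 55.5 to 144 CPM and of endothelial cells to 25.1 to 83.5 CPM in the BMDM libraries, while those of neutrophils summed to 12.2 to 51.7 CPM. Markers of B, T and NK, mast, erythroid and dendritic cells each summed to at most 4.71 CPM. In such bulk samples, fewer cells of a type and less RNA per cell cannot be told apart.

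**Figure D1:**
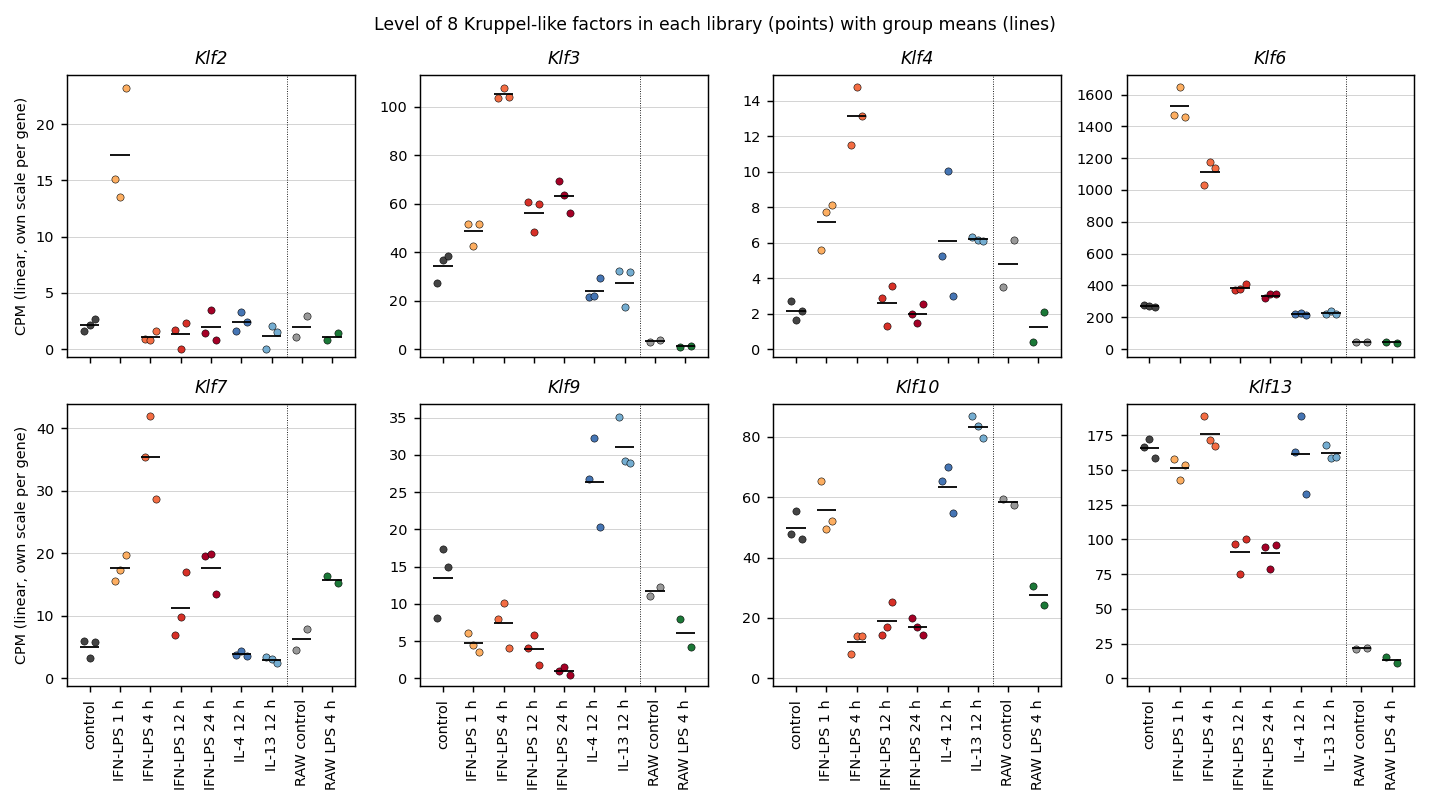
Level of each Kruppel-like factor in each library (points, CPM on a linear axis with its own scale per gene) and group mean (line), with BMDM groups left of the dotted line and RAW264.7 right of it. Klf2 and Klf6 were highest at 1 h, Klf3, Klf4 and Klf7 at 4 h, and Klf9 and Klf10 in IL-13.

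Against control, 4 of the 8 members rose at 1 h of IFN-LPS (Klf2, Klf4, Klf6 and Klf7) and Klf9 fell, where 7.71% of the 9568 genes tested were called higher and 4.53% lower. At 4 h Klf3, Klf4, Klf6 and Klf7 were higher and Klf10 was lower (16.9% of genes higher, 16.6% lower). At 12 h Klf7 was higher and Klf9 and Klf10 were lower (13.9% and 13.4% of genes), and these 3 were called in the same directions at 24 h (12.3% and 11.9%). From 1 to 4 h Klf3 and Klf7 rose further while Klf2 and Klf10 fell (11.8% of genes higher, 11.4% lower), and from 4 to 12 h Klf4, Klf6 and Klf7 fell and none rose (9.42% and 9.21%). All 8 passed the filter on low counts, Klf2 only through its 1 h libraries, Klf4 only through its 1 h and 4 h libraries and Klf7 only with its IFN-LPS libraries. Klf2, Klf4 and Klf7 were thus tested only because of groups in which they were high, and the medians that follow include them. The 8 members, like the gene lists below, were also chosen with earlier results of these data known. The members had a median log2 fold change of 1.10 at 1 h and 0.85 at 4 h, then -0.16 at 12 h and -0.14 at 24 h, with that of all genes between -0.02 and 0.02. Neutrophil markers, 7 of 8 listed being in the tables, were above control without overlap after 1, 4 and 12 h but not after 24 h, their summed level running from 13.6 to 23.5 CPM in control, 32.2 to 43.5 CPM at 1 h, 37.3 to 51.7 CPM at 4 h, 27.9 to 28.9 CPM at 12 h and 21.9 to 24.0 CPM after 24 h. Of these 7 markers, Mpo had no count in any of these libraries and Elane none outside 1 h, while all others had counts in control, at 1 h and at 4 h. The part of neutrophil RNA in the members' values was not tested.

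**Figure D2:**
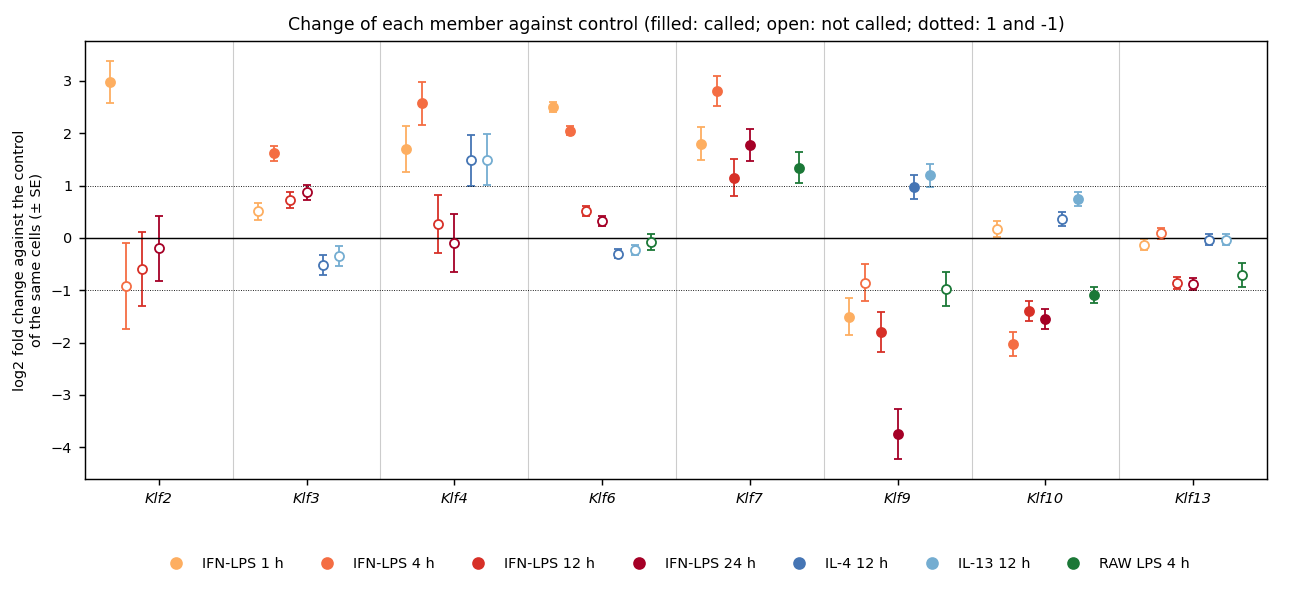
Log2 fold change (± SE) of each member against the control of the same cells in 7 comparisons, with filled points for called and open points for uncalled changes and no point where a member was not tested. Klf7 was filled in all 4 IFN-LPS times and in RAW264.7 with LPS, and Klf9 was below 0 in every IFN-LPS time and above 0 with IL-4 and IL-13.

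Klf6, on chromosome 13 (5861482 to 5870394, plus strand, mm10), had the highest level per kb of exon of the 8 in every BMDM group. It is an immediate-early gene in many cell types. Its level was 277, 268 and 262 CPM in the control libraries and 1472, 1645 and 1457 CPM at 1 h. The 4 h libraries had 1031, 1174 and 1139 CPM, the 12 h libraries 371, 376 and 409 CPM, and the 24 h libraries 318, 347 and 343 CPM. None of the IFN-LPS libraries overlapped with control, and each time point lay below the one before it. The log2 fold change was 2.5 (SE 0.0926, FDR 1.99e-28) at 1 h, a 5.67-fold rise, and 2.05 (SE 0.0925, FDR 2.71e-25) at 4 h. From 4 to 12 h it fell by 1.53 on the log2 scale (SE 0.0905, FDR 9.89e-20). At 12 and 24 h it was 0.52 and 0.32 above control, with FDRs of 4.22e-06 and 0.00263 but below the fold cutoff.

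Klf2, on chromosome 8 (72319033 to 72321656, plus strand), was higher than in control at 1 h of IFN-LPS. The 3 control libraries had 1.61, 2.17 and 2.67 CPM, from 3 to 5 counts each. The 1 h libraries had 15.1, 13.5 and 23.3 CPM (21 to 46 counts), 7.92-fold above control (log2 2.99, SE 0.401, FDR 2.17e-08), with no overlap. At 4 h the level was back to 0.885, 0.776 and 1.64 CPM, a fall of 3.91 on the log2 scale from 1 h (SE 0.529, FDR 1.46e-08). In every other BMDM group it ran from 0 to 3.48 CPM and did not stand apart from control at this depth. The difference from control was -0.92 on the log2 scale at 4 h with a 95% interval of -2.53 to 0.68.

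Klf4, on chromosome 4 (55527143 to 55532466, minus strand), was higher than in control at 1 h and at 4 h of IFN-LPS. It had 2.68, 1.63 and 2.14 CPM in the control libraries (3 to 5 counts), 5.59, 7.72 and 8.09 CPM at 1 h and 11.5, 14.7 and 13.1 CPM at 4 h (13 to 19 counts). The 3 groups did not overlap with one another. Its log2 fold change was 1.70 at 1 h (SE 0.437, FDR 0.00163) and 2.57 at 4 h (SE 0.41, FDR 3.96e-07), and the step from 1 to 4 h was 0.88 (SE 0.325, FDR 0.0218), which did not pass. The call at 1 h was lost with DESeq2 (FDR 0.0120), without the second control sample (FDR 0.0124) and without the third 1 h sample (FDR 0.0129). From 4 to 12 h it fell by 2.30 on the log2 scale (SE 0.405, FDR 4.99e-06), to 2.89, 1.30 and 3.53 CPM, and at 24 h it had 1.95, 1.49 and 2.53 CPM. Both late groups overlapped with control.

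Klf7, on chromosome 1 (64029447 to 64122282, minus strand), was called above control at all 4 times of IFN-LPS, as no other member was. This factor is best known from neurons and fat cells. It had 5.9, 3.26 and 5.88 CPM in control, 15.7, 17.4 and 19.7 CPM at 1 h and 35.4, 41.9 and 28.7 CPM at 4 h. The 12 h libraries had 6.93, 9.75 and 17.1 CPM and the 24 h libraries 19.5, 19.9 and 13.5 CPM. All 12 IFN-LPS libraries lay above the highest control library. Log2 fold changes were 1.8 (SE 0.313, FDR 5.82e-06), 2.80 (SE 0.289, FDR 5.41e-12), 1.15 (SE 0.349, FDR 0.00416) and 1.78 (SE 0.305, FDR 1.93e-06) at 1, 4, 12 and 24 h. The 12 h libraries were spread over a wide range, and the call at 12 h was lost without the third of them (log2 0.71, FDR 0.128), without the second control sample (0.93, FDR 0.0359) or with library size alone (0.80, FDR 0.0425). The rise from 1 to 4 h was 1.00 (SE 0.228, FDR 0.000238), right at the fold cutoff, and several settings put it below, among them a fit blocked on replicate number (0.998), the fit without the second 4 h sample (0.85) and library size alone (0.64, FDR 0.0145). From 4 to 12 h Klf7 fell by 1.65 on the log2 scale (SE 0.252, FDR 3.2e-07).

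Klf3, on chromosome 5 (64803388 to 64832901, plus strand), is the member that binds CtBP corepressors and mostly represses its targets. The control libraries had 27.4, 36.9 and 38.5 CPM, the 1 h libraries 51.4, 42.5 and 51.6 CPM and the 4 h libraries 104, 108 and 104 CPM. The 12 h libraries had 60.6, 48.1 and 59.99 CPM and the 24 h libraries 69.4, 63.6 and 56.0 CPM. Control was the lowest of these 5 groups and overlapped with none of the others. The log2 fold change was 1.62 at 4 h (SE 0.147, FDR 9.95e-14), a 3.07-fold rise, of which 1.11 (SE 0.14, FDR 2.7e-09) came after 1 h. With library size alone the step after 1 h was 0.75 and not called. The smaller differences of 0.51 at 1 h, 0.72 at 12 h and 0.87 at 24 h passed the FDR (0.00872, 8.77e-05 and 1.5e-06) but not the fold cutoff. There was also a small antisense signal, 25 counts at 12 h against 281 sense counts over the 3 libraries, or 8.17% of both. At 4 h it was 13 against 383 sense counts, and control had no antisense count. Over all genes, the ratio of sense to antisense counts was also lowest at 12 h, 93.9 to 102 against 124 to 126 in control.

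Klf9, on chromosome 19 (23141226 to 23168134, plus strand), is a SIN3-binding factor that responds to glucocorticoid and thyroid hormone. It went down with IFN-LPS, from 8.05, 17.4 and 14.98 CPM in control (15 to 32 counts) to 6.15, 4.5 and 3.54 CPM at 1 h. The 4 h libraries had 7.97, 10.1 and 4.1 CPM and the 12 h libraries 4.04, 5.85 and 1.76 CPM. At 24 h 0.977, 1.49 and 0.421 CPM were left, from 1 to 3 counts each. The 1, 12 and 24 h groups lay below every control library, whereas the 4 h group overlapped with control. Against control it changed by -1.50 at 1 h (log2, SE 0.359, FDR 0.000696), -1.79 at 12 h (SE 0.382, FDR 7.44e-05) and -3.75 at 24 h (SE 0.479, FDR 2.73e-09). The 4 h value of -0.85 (SE 0.359, FDR 0.0365) was not called, though it was without the first control sample (-1.12, FDR 0.0081) and with library size alone (-1.43). The 1 h call was lost without the second control sample (-1.28, FDR 0.0132) or without the third 1 h sample (-1.31, FDR 0.0111). The 5 endothelial markers summed to 62.8 to 67.9 CPM in control, 25.1 to 39.7 CPM at 1 h, 49.2 to 54.9 CPM at 4 h, 54.1 to 65.3 CPM at 12 h and 38.3 to 50.8 CPM at 24 h. Of these 5, only Tek had no count in any library, and Vwf reached 50.7 CPM in its highest BMDM group mean. The part of endothelial RNA in the Klf9 values was not tested.

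Klf10, on chromosome 15 (38291463 to 38300706, minus strand), was first described as a gene induced early by TGF-β. It was called below control at 4, 12 and 24 h of IFN-LPS. Control libraries had 47.8, 55.4 and 45.997 CPM and 1 h libraries 65.4, 49.5 and 52.1 CPM, which overlapped. At 4 h it had 7.97, 14.0 and 13.9 CPM, at 12 h 14.4, 16.9 and 25.3 CPM and at 24 h 20.04, 16.9 and 14.3 CPM, all below control. It differed from control by 0.17 on the log2 scale at 1 h (95% interval -0.14 to 0.47), and by -2.03 at 4 h (SE 0.23, FDR 7.91e-11), -1.39 at 12 h (SE 0.193, FDR 1.96e-08) and -1.55 at 24 h (SE 0.186, FDR 5.76e-10). From 1 to 4 h it fell by 2.20 on the log2 scale (SE 0.227, FDR 8.67e-12).

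Klf13, on chromosome 7 (63886351 to 63938915, minus strand), known from T cells as an activator of Ccl5, was called at no time of IFN-LPS by both criteria. It had 166, 172 and 158 CPM in control, 158, 143 and 153 CPM at 1 h and 189, 172 and 167 CPM at 4 h. The 12 h libraries had 96.5, 75.4 and 101 CPM and the 24 h libraries 94.8, 79.0 and 96.0 CPM, all below every earlier library. The log2 fold change was -0.86 at 12 h (SE 0.115, FDR 7.51e-09) and -0.88 at 24 h (SE 0.112, FDR 2.46e-09), which passed the FDR but not the fold cutoff. With library size alone it passed both, at -1.22 and -1.10. At 1 h the difference was -0.13 (95% interval -0.34 to 0.08) and at 4 h 0.08 (-0.13 to 0.30).

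No member was called by edgeR between 12 and 24 h, where 3.89% of all genes were, and DESeq2 called none either. Klf6, Klf7 and Klf9 were the 3 with an unadjusted edgeR p below 0.05, the lowest being 0.00406 for Klf9 (-1.96, FDR 0.0231). Without the third 12 h sample, Klf7 (1.07, FDR 0.00627) and Klf9 (-2.31, FDR 0.00658) were called. Among changes from 4 to 12 h under the fold cutoff, Klf3 differed by -0.90 (FDR 3.82e-07) and Klf13 by -0.95 (FDR 3e-09), which passed the FDR, and Klf10 by 0.64 (FDR 0.0525), Klf9 by -0.94 (FDR 0.0969) and Klf2 by 0.34 (FDR 0.794), which did not.

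With IL-4 and IL-13, the cytokines of alternative activation, Klf9 was higher than in control, and with IL-13 Klf10 was higher too. Klf2 and Klf7 did not pass the filter on low counts in these 9 libraries, so 6 members were tested. Against control, Klf9 was higher with IL-4, where 2.3% of the 9252 genes tested were called higher, and Klf9 and Klf10 were higher with IL-13 (3.16% of genes). None was lower with either cytokine (1.56% and 2.26% of genes). Between IL-13 and IL-4 no member was called by edgeR or DESeq2, where 0.0649% of genes were, and 1 of the 6 had an unadjusted edgeR p below 0.05. Klf4 passed the filter through its IL-4 and IL-13 libraries. The median log2 fold change of the 6 was 0.16 with IL-4 and 0.35 with IL-13, against 0.0058 and 0.0076 for all genes.

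Klf9 had 26.7, 32.3 and 20.3 CPM with IL-4 and 35.1, 29.2 and 28.9 CPM with IL-13, all 6 above the control libraries. The log2 fold change was 0.98 with IL-4 (SE 0.226, FDR 0.00151) and 1.2 with IL-13 (SE 0.218, FDR 2.95e-05). Without the first control sample, at 8.05 CPM, the IL-4 change was 0.71 (FDR 0.0382) and no longer called. It was also lost with DESeq2 (FDR 0.0124), without the first IL-4 sample (FDR 0.010008) and without the second (0.81, FDR 0.0374). Endothelial markers summed to 72.8 to 77.5 CPM with IL-4 and 65.0 to 83.5 CPM with IL-13, and their part was not tested.

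Klf10 had 65.5, 70.1 and 54.9 CPM with IL-4 and 86.9, 83.4 and 79.5 CPM with IL-13. Every IL-13 library lay above every IL-4 and control library, while the lowest IL-4 library was just under the highest control library. The change was 0.74 with IL-13 (SE 0.129, FDR 1.33e-05) and 0.36 with IL-4 (SE 0.135, FDR 0.0727). IL-13 exceeded IL-4 by 0.39 (SE 0.125, FDR 0.331). The IL-13 call went just under the fold cutoff without the third control sample (0.69, FDR 0.000405).

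Klf4 had 5.24, 10.0 and 2.98 CPM with IL-4 and 6.33, 6.14 and 6.07 CPM with IL-13. All 6 libraries lay above the highest control library at 2.68 CPM, yet with 3 to 5 counts in control the changes of 1.48 (SE 0.491, FDR 0.0348) and 1.49 (SE 0.485, FDR 0.0252) did not pass. Klf6 had 217, 227 and 211 CPM with IL-4 and 223, 242 and 221 CPM with IL-13, all below control, at -0.30 (SE 0.0893, FDR 0.0172) and -0.23 (SE 0.0886, FDR 0.0624). Klf3 differed from control by -0.51 (SE 0.195, FDR 0.0731) and -0.34 (SE 0.189, FDR 0.236). Klf13 differed by -0.03 with either cytokine, with 95% intervals of -0.24 to 0.17 for IL-4 and -0.23 to 0.17 for IL-13. The untested Klf7 had 3.58 to 4.45 CPM with IL-4 and 2.53 to 3.45 CPM with IL-13, and Klf2 had 0 to 3.34 CPM over both. Of the Rn45s counts, 0.00603% to 0.0214% were antisense in the IL-4, IL-13 and IFN-LPS 24 h libraries and 0.0386% to 0.122% in the other BMDM libraries. This split cannot be told apart from the comparisons of IL-4, IL-13 and IFN-LPS 24 h with control, from the step from 12 to 24 h of IFN-LPS, or from the direct comparisons of IFN-LPS with IL-4 and IL-13.

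At the shared time of 12 h, IFN-LPS and the alternative cytokines were also compared directly, in a fit of all 25 libraries. Against IL-4, Klf3 and Klf7 were higher and Klf9 and Klf10 lower with IFN-LPS, where 12.4% of the 10612 genes tested were called higher and 12% lower. Against IL-13 the same members were called in the same directions (12.2% and 12.1% of genes), and both comparisons share the 12 h IFN-LPS libraries. With library size alone the median of all genes moved by -0.34 and -0.37, and 31.9% rather than 50.9% and 30.8% rather than 50.1% of all calls were upward. Klf9 was furthest apart, at -2.77 (SE 0.323, FDR 1.15e-11) against IL-4 and -2.99 (SE 0.311, FDR 1.8e-13) against IL-13. Klf10 differed by -1.75 (SE 0.178, FDR 7.55e-14) and -2.13 (SE 0.17, FDR 1.67e-18). The IFN-LPS libraries of both genes lay below all 6 others. Klf3 differed by 1.23 (SE 0.176, FDR 6.99e-09) and 1.06 (SE 0.17, FDR 1.5e-07), and both calls were lost with library size alone (0.89 and 0.69), the second also without the second IL-13 sample (0.82). Klf7 differed by 1.51 (SE 0.366, FDR 0.000321) and 1.89 (SE 0.383, FDR 2.16e-05), the first being lost without the third 12 h IFN-LPS sample (1.07, FDR 0.0306). Klf7 had 5 to 8 counts a library with IL-4 or IL-13 and had not passed the filter in the fit of these with control. It was tested here because of other libraries, among them those with IFN-LPS, in which it was high. Klf6 at 0.82 and 0.75 and Klf13 at -0.83 and -0.83 passed the FDR below the fold cutoff, and with library size alone Klf13 passed both, at -1.18 and -1.20. Klf2 differed by -0.75 (FDR 0.400) and 0.18 (FDR 0.878). Klf4 was at -1.21 (FDR 0.0283) and -1.22 (FDR 0.025). Without the third IL-4 sample the first of these passed (-1.51, FDR 0.00719), and with library size alone both did (-1.55, FDR 0.00371, and -1.59, FDR 0.00252).

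Scaled to the length of their exons, the levels of the 8 members were compared with one another as a description. Klf6 made up 56.2% of their summed level in control, ahead of Klf13 at 21.9%, Klf10 at 11.4% and Klf3 at 5.61%. Klf9, Klf2, Klf4 and Klf7 each had less than Klf3, from 2.64% down to 0.553%. The sum was 113 ± 2.89 CPM per kb in control. After IFN-LPS of 1, 4, 12 and 24 h it was 422 ± 19.6, 324 ± 18.3, 124 ± 9.47 and 113 ± 1.86 CPM per kb. Klf6 took 85.4% of it at 1 h and 81.4% at 4 h. With IL-4 and IL-13 the sum was 107 ± 10.2 and 115 ± 2.46 CPM per kb, and Klf10 held 15.5% and 18.9% of it. At 24 h the sum was at its control value with other shares, 70.2% for Klf6, 1.93% for Klf7 and 0.189% for Klf9.

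**Figure D3:**
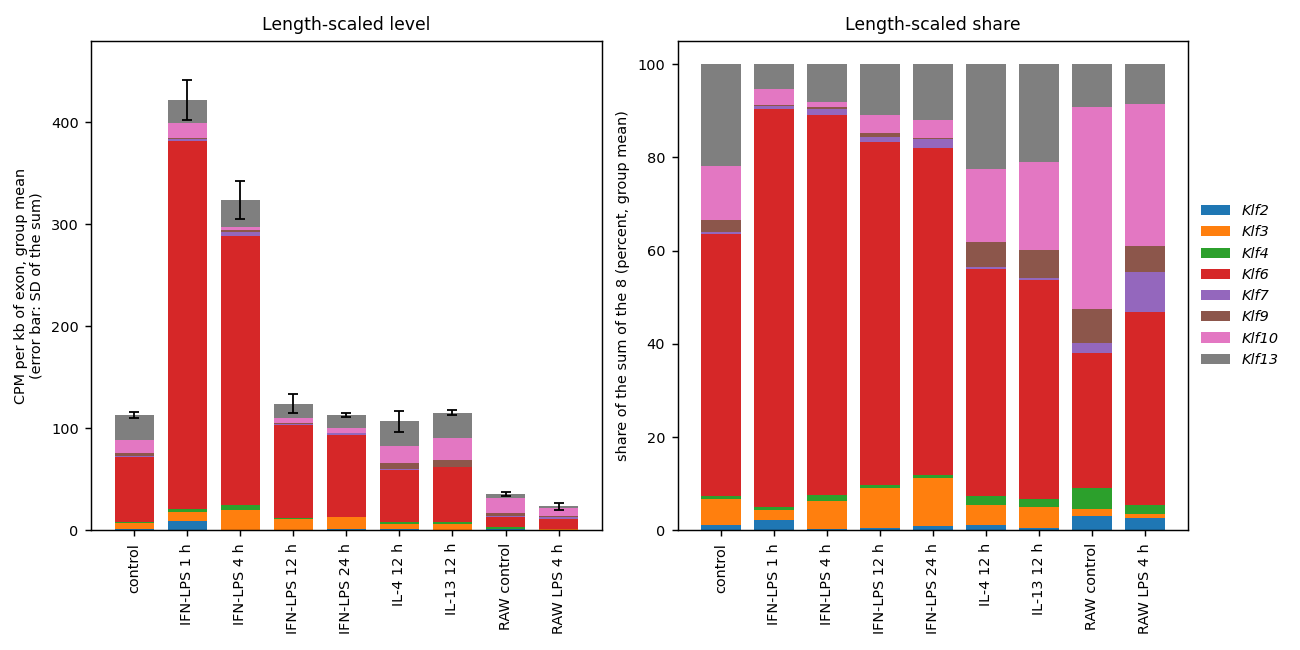
Length-scaled level of the 8 members stacked by condition (left, CPM per kb of exon, group means with the SD of the sum) and as a share of their sum (right, percent). Klf6 filled 85.4% of the stack at 1 h, while in control RAW264.7 cells Klf10 was the largest part with 43.3%.

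In RAW264.7 cells 3 members were well below their BMDM level. These cells also differed from BMDMs in medium, M-CSF and mouse strain of origin, which cannot be told apart from cell type here. The length-scaled sum of the 8 was 35.3 ± 1.86 CPM per kb in their control and 23.4 ± 3.1 with LPS, and in control Klf10 held 43.3% and Klf6 28.8% of it. Against control BMDMs, Klf3, Klf6 and Klf13 were lower in control RAW264.7 cells, and none was higher, in a comparison where 25% of genes were called lower and 22.5% higher. Klf3 had 2.78 and 3.62 CPM (8 and 10 counts), 10.5-fold less (log2 -3.40, SE 0.292, FDR 3.52e-17). Klf6 had 42.3 and 43.5 CPM, 6.26-fold less (log2 -2.65, SE 0.121, FDR 1.66e-31), and Klf13 21.2 and 22.1 CPM, 7.63-fold less (log2 -2.93, SE 0.153, FDR 3.95e-28). None of these overlapped with any BMDM library. Klf10 had 59.3 and 57.3 CPM, Klf9 11.1 and 12.3 CPM and Klf7 4.51 and 7.97 CPM, with differences of 0.23, -0.20 and 0.30 that did not pass. Klf4 had 3.47 and 6.16 CPM (1.13, FDR 0.0404) and Klf2 1.04 and 2.90 CPM, neither called. With library size alone the median of all genes moved by 0.24 here and 57.4% rather than 47.4% of all calls were upward. Stromal markers had no count in RAW264.7 and endothelial markers summed to 0.725 to 1.74 CPM, and how much such cells add to the BMDM values was not tested.

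With LPS for 4 h in RAW264.7, 5 members were tested, since Klf2, Klf3 and Klf4 did not pass the filter. Klf7 was higher and Klf10 lower, where 5.43% of the 9406 genes tested were called higher and 5.78% lower. Klf7 went from 4.51 and 7.97 to 16.3 and 15.3 CPM (log2 1.34, SE 0.297, FDR 4.34e-05), and Klf10 from 59.3 and 57.3 to 30.7 and 24.3 CPM (log2 -1.10, SE 0.157, FDR 4.71e-11), with no overlap in either. The Klf7 call was lost with DESeq2 (FDR 0.0223) or without the first control sample (0.98, FDR 0.0176), and the Klf10 call without the second LPS sample (-0.93). Klf6 had 45.4 and 36.7 CPM with LPS and did not differ detectably (-0.07, 95% interval -0.37 to 0.23). Klf9 had 7.96 and 4.16 CPM (-0.97, FDR 0.00916) and Klf13 15.5 and 11.1 CPM (-0.71, FDR 0.00724), both below their controls but under the fold cutoff. Klf9 was called as well without the first LPS sample (-1.48) and with library size alone (-1.11, FDR 0.00239). The untested members had 0.398 to 2.08 CPM with LPS, from 1 to 6 counts a library.

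The 4 h responses of the 2 kinds of cells were then tested against each other, as the response to LPS in RAW264.7 minus the response to IFN-LPS in BMDMs. Since the RAW264.7 cells had no IFN-γ, no M-CSF, another medium and another mouse strain of origin, the cell type cannot be told apart from these. The response of Klf3, Klf4, Klf6 and Klf7 was lower in RAW264.7 and no member's was higher, where 11.1% of genes were called lower and 7.93% higher. In RAW264.7, Klf3 went from 2.78 and 3.62 to 0.796 and 1.39 CPM and Klf4 from 3.47 and 6.16 to 0.398 and 2.08 CPM. Both thus moved down there, to 1 to 6 counts a library with LPS, but neither passed the filter in the fit of RAW264.7 alone. Both were tested here because of BMDM libraries, for Klf4 those of stimulated cells, in which it was high. The difference was -3.09 for Klf3 (SE 0.645, FDR 6.85e-05), -4.42 for Klf4 (SE 0.722, FDR 5.53e-07) and -2.12 for Klf6 (SE 0.172, FDR 2.07e-17). The Klf4 difference was -5.96 without the second RAW264.7 LPS sample and -3.76 without the first. Klf6 had risen 4.15-fold in BMDMs. For Klf7, which was higher in both, it was -1.47 (SE 0.454, FDR 0.0077) and was lost with library size alone (-1.02, FDR 0.0589), with DESeq2 (FDR 0.0213), with Rn45s kept (FDR 0.0115) and without any of 6 single libraries, down to -1.01 (FDR 0.197) without the second RAW264.7 control. Klf10, lower in both, differed by 0.94 (SE 0.298, FDR 0.00948), under the fold cutoff, and with library size alone by 1.38. That scaling moved the median of all genes by 0.44 here, and 70.5% rather than 41.7% of all calls were then upward. Klf13 differed by -0.80 (SE 0.253, FDR 0.00978), also under the fold cutoff, Klf9 by -0.12 (95% interval -1.09 to 0.86) and Klf2 by 0.15 (-2.18 to 2.48).

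**Figure D4:**
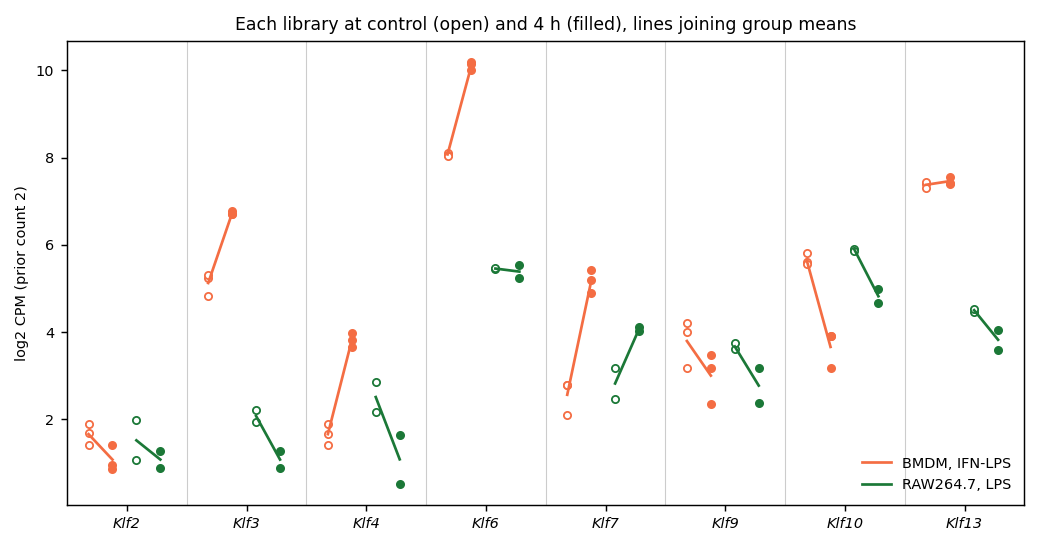
Log2 CPM (prior count 2) of each library at control (open) and at 4 h (filled) in BMDMs with IFN-LPS and RAW264.7 cells with LPS, lines joining group means. Klf6 rose from 269 to 1115 CPM in BMDMs and had 42.9 and 41.1 CPM in RAW264.7, whereas Klf10 fell in both.

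The other 18 genes of the KLF and SP family gave the backdrop, and 7 of them had enough counts to be tested in the time course. Of these 1 was higher and 2 were lower at 4 h (1 lower with DESeq2), where 16.9% of all genes were called higher and 16.6% lower. At 12 h and at 24 h 1 of the 7 was lower (13.4% and 11.9% of all genes). None was called at 1 h or with IL-4 or IL-13 by edgeR or DESeq2, and at an unadjusted edgeR p below 0.05 there was 1 at 1 h, 1 with IL-4 and 0 with IL-13. Klf8, a CtBP-binding relative of Klf3, had 1.79 ± 0.813 CPM in control and 57.4 ± 9.45 CPM at 4 h, from 51.7 to 68.3 CPM, 4.95 on the log2 scale (SE 0.312, FDR 1.73e-19) and larger than that of any of the 8 members. It was back to 2.77 ± 1.41 CPM at 12 h and was at 2.53 ± 1.32 CPM in RAW264.7 with LPS. With so few counts in control, Klf8 was tested only because of IFN-LPS libraries in which it was high. Klf11, the closest relative of Klf10, fell from 8.97 ± 4.17 CPM to 3.01 ± 0.322 CPM at 4 h (-1.55, SE 0.503, FDR 0.00703) and 0.820 ± 0.748 CPM at 24 h (-3.41, SE 0.569, FDR 1.25e-06). In RAW264.7 it went from 4.97 ± 0.654 to 0.372 ± 0.0365 CPM (-3.59, FDR 4.61e-06), a call that DESeq2 did not make. Klf1, Klf5, Klf12, Klf14, Klf15 and Klf17 stayed below 1 CPM in the mean of every group.

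Of 12 cofactors and ubiquitin ligases of the family, 1 was lower at 1 h of IFN-LPS, 3 were higher and 1 was lower at 4 h, 3 higher and 2 lower at 12 h, 2 higher and 2 lower at 24 h, and 2 lower in RAW264.7 with LPS. Of all genes, 4.53% were called lower at 1 h, and 16.9% higher and 16.6% lower at 4 h. The shares were 13.9% and 13.4% at 12 h, 12.3% and 11.9% at 24 h, and 5.78% lower in RAW264.7. Wwp1, a ubiquitin ligase known to target KLF2 and KLF5, had 175 ± 8.27 CPM in control and 19.5 ± 3.22 CPM at 12 h (-3.16, SE 0.157, FDR 1.62e-23). Hdac1, the deacetylase of the SIN3 complex, was 1.16 above control at 4 h (log2, FDR 1.10e-06) and 1.32 at 12 h (FDR 1.39e-08), and Sin3b 1.07 at 4 h (FDR 1.44e-10). With library size alone no cofactor was called higher at either time. None of the 12 was called with IL-4 or IL-13 by edgeR or DESeq2, and 4 and 5 of them had an unadjusted edgeR p below 0.05.

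Of 9 kinases and factors known to act upstream of the family, 1 was higher and 3 were lower at 4 h of IFN-LPS, 3 were lower at 12 h, 2 were lower at 24 h, and 1 was lower with IL-13 and 1 in RAW264.7 with LPS. Of all genes, 16.9% were called higher and 16.6% lower at 4 h, and 13.4% and 11.9% lower at 12 and 24 h. With IL-13 2.26% of genes were lower, and in RAW264.7 5.78%. At 1 h edgeR and DESeq2 called none of the 9, and 5 of them had an unadjusted edgeR p below 0.05. Mef2c had 38.4 ± 2.35 CPM in control, 29.8 ± 3.95 CPM at 1 h and 6.71 ± 3.76 CPM at 4 h (-2.47, SE 0.271, FDR 3.52e-11). Mef2d had 62.6 ± 7.06 CPM in control, 66.0 ± 6.58 CPM at 1 h and 17.7 ± 4.14 CPM at 4 h (-1.83, SE 0.191, FDR 7.65e-12). Both encode factors that bind the kind of site found in the Klf2 promoter, which was 1 of several motifs searched for. Whether they bear on Klf2 in these cells was not tested. Nr3c1, the glucocorticoid receptor, was 1.29 higher at 4 h on the log2 scale (FDR 1.81e-15), a call not made with library size alone. With that scaling the list had 0 higher and 7 lower at 4 h, and 5 lower at 12 h.

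Among 17 macrophage genes known to be tied to KLF2 or KLF4, 14 were tested in the time course, and 8 were higher and 3 lower at 1 h, 9 and 4 at 4 h, 8 and 4 at 12 h and 7 and 4 at 24 h. Of all genes, 7.71% were called higher and 4.53% lower at 1 h, and 16.9% and 16.6% at 4 h. The shares were 13.9% and 13.4% at 12 h and 12.3% and 11.9% at 24 h. Tnf went from 28.2 ± 0.416 CPM to 9517 ± 729 CPM at 1 h, and Il6 from no count to 685 ± 43.3 CPM at 4 h. With no count in control, Il6 was tested only because of groups in which it was high, and could only be called higher. Which others of the list passed the filter in this way is not given here. With IL-4, 2.3% of all genes were called higher and 1.56% lower, and with IL-13 3.16% and 2.26%. Of 12 genes of this list tested there, 6 were higher and 0 lower with IL-4, and 6 were higher and 2 lower with IL-13. The lower ones were Tnf (-0.70, FDR 0.00718) and S1pr1 (-0.96, FDR 7.33e-08). With library size alone 1 was lower with IL-13. Chil3 rose from 5.02 ± 1.52 CPM to 715 ± 43.4 CPM with IL-4 and 1384 ± 14.2 CPM with IL-13, and Arg1 from no count to 27.4 ± 1.85 and 39.0 ± 7.04 CPM. Arg1 passed the filter there only through its IL-4 and IL-13 libraries and could only be called higher.

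Over the 21 BMDM libraries, which fall into 7 conditions, so that replicates are not independent points, the members' levels were set side by side as a description. Pearson's r of log2 CPM was 0.887 between Klf3 and Klf7, 0.799 between Klf6 and Klf7, 0.682 between Klf4 and Klf13, and 0.680 for Klf9 with either Klf10 or Klf13. It was -0.849 between Klf3 and Klf10, -0.744 between Klf7 and Klf10 and -0.704 between Klf7 and Klf9. Klf2, high at 1 h alone, reached at most 0.538, with Klf6. Of 8731 genes compared, those most like each member in this measure were Dnajb4 (0.908), Gadd45a and Apbb3 for Klf2, Cd80 (0.950), Rnf24 and Sh3bp4 for Klf3, and Pfkp (0.896) and Rpl7 for Klf4. For Klf6 they were Skil (0.984), a repressor of TGF-β signalling, Tnfsf9 and H3f3b, and for Klf7 Sqstm1 (0.951), the autophagy receptor p62, Ccl4 and Akna. Klf9 was most like Vwf (0.939), Mmp12, the macrophage elastase, and Atp6v0d2, Klf10 most like Jmjd1c (0.970), Amz1 and Gpr157, and Klf13 most like Pdlim5 (0.939), Capn2 and Pdzk1ip1. Vwf is 1 of the 5 endothelial markers given above beside Klf9.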

How the data were processed

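RNA-seq libraries were made from total RNA after ribosomal RNA depletion with a directional kit. Per the labels and the study's methods, the authors called bases with CASAVA 1.8.2, trimmed with Trimmomatic 0.33, aligned to mm10 with STAR 2.5.1 and deposited raw read counts per gene for unstranded, sense and antisense reads. The annotation release was not given in the sources used here. Sense counts were used, and 62.7% to 69.1% of reads per library fell on no gene. Rn45s, 20.1% to 39.8% of sense counts, was left out.

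The 8 members, the 4 gene lists and the marker lists were chosen with earlier results of these data known. TMM factors were computed once over 25 libraries. Robust edgeR 4.0.16 quasi-likelihood fits (R 4.3.3, low genes removed by filterByExpr) were made for control and IFN-LPS, for control, IL-4 and IL-13, for RAW264.7, and for all 25 libraries, giving 15 comparisons with Benjamini-Hochberg adjusted p-values over all genes tested. SE is the fold change over the square root of F, and 95% intervals are 1.96 SE on each side. p-values measure the spread between these samples, which the study's methods call biological replicates for the BMDMs. Levels per kb used exon lengths from GENCODE M21. The genes named were the 8 members, with up to 4 called genes from each list and the 3 genes most like each member among those at 10 CPM or more in a BMDM group.

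In simulated counts with 200 changed genes, edgeR recovered 100 of 100 genes changed by 2 on the log2 scale in the IFN-LPS 1 h comparison (9261 genes tested) and 97 of 100 in RAW264.7 (9363 genes tested). The changed genes were drawn from those with more counts, with a fixed spread and as many raised as lowered. The recovery therefore does not cover members with few counts, such as Klf2, Klf4 and Klf9. Pairs of replicates differed by more than sampling noise (chi-square per degree of freedom 1.30 to 4.53). Same-numbered samples deviated together little on average in the IFN-LPS fit (mean r = 0.0333, highest 0.204). For different numbers the mean was -0.0168 and the highest 0.140. The labels do not say whether the numbers pair samples, so no block was used in the main fits. Alternatives were DESeq2 1.42.0, other scalings, filters, cutoffs, strands and sample sets, and leaving out each library. One gene among those most like a member is not reported here.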

Additional observations from a re-analysis of the deposited data

Results flagged for a closer look

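The response to LPS at 4 h in RAW264.7 cells differed by test from the response to IFN-LPS at 4 h in BMDMs for 4 members. On the log2 scale the RAW264.7 response minus the BMDM response was -3.09 for Klf3, -4.42 for Klf4, -2.12 for Klf6 and -1.47 for Klf7. Klf3 and Klf4 rested on 1 to 6 counts per library in RAW264.7 with LPS, and the Klf4 value ran from -5.96 to -3.76 when 1 library was left out. Both had failed the filter on low counts in RAW264.7 alone and were tested because of BMDM libraries.

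Antisense reads, which no comparison used, exceeded those in control and reached a floor of 3 counts in every library of a group for 2 members. Lower antisense counts of other members are not listed. Klf3 had 13 antisense counts in IFN-LPS 4 h (3 to 6 per library) and 25 in IFN-LPS 12 h (6 to 11 per library), against 0 in control. Over all genes, IFN-LPS 12 h also had the lowest ratio of sense to antisense counts of the BMDM groups, 93.9 to 102. Klf6 had 19 in IFN-LPS 1 h (6 to 7 per library), 0.235% of the counts on both strands, against 1 in control, or 0.0667%. Its sense counts were also higher, 8073 at 1 h against 1499 in control.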

How the results depend on the processing

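No member's called change reversed under any alternative. The number of members called moved by more than 1.5 times in these cases. With at least 10 counts required in every library it was 1 after 1 h, 2 after 4 h and 0 after 12 and after 24 h of IFN-LPS against control, 1 from 1 to 4 h, 1 from 4 to 12 h, 0 for IFN-LPS against IL-4 or IL-13, and 1 for the difference in response, since fewer members were then tested. By FDR alone it was 6 both for 12 h and for 24 h, 5 from 4 to 12 h and 4 in RAW264.7. With a stricter cutoff of 1.5 in the IFN-LPS time course and 2 elsewhere it was 1 at 12 h, 2 from 1 to 4 h, 0 with IL-4, 0 with IL-13, 0 in RAW264.7, 1 for IFN-LPS against IL-4 and 2 against IL-13. Library size alone gave 2 from 1 to 4 h. DESeq2 gave 0 with IL-4 and 1 in RAW264.7, and the cause was not tested. Over all genes, calls by FDR alone were between 1.53 times (4 h against control) and 3.70 times (12 to 24 h) those with the fold cutoff where they moved by over 1.5 times, and DESeq2 gave 0.655 times as many in RAW264.7 and 3 rather than 6 genes between IL-13 and IL-4. Where calls moved that far, the stricter cutoff gave 0 to 0.626 times and the 10-count filter 0.167 to 0.638 times as many.

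Leaving out 1 library at a time gave 3 to 5 members called after 1 h of IFN-LPS, 5 to 6 after 4 h, 2 to 3 after 12 h and 3 in each fit after 24 h. It gave 3 to 4 from 1 to 4 h and from 4 to 12 h, 0 to 2 from 12 to 24 h, 0 to 1 with IL-4, 1 to 2 with IL-13 and 1 to 3 in RAW264.7. With the replicate number as a block, 5 members were called at 1 h and 5 at 4 h, and 3 instead of 4 from 1 to 4 h. Every other count of members called was the same under the block, and the labels do not say whether the numbers pair the samples.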
